A study of Mus musculus with 73 samples.

Results

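In a series of 73 mouse mammary tumours profiled by RNA sequencing, 21 adenocarcinomas carry the genotype label KB1P, and these were divided into sides chosen by their measured Wnt1 level. In this established model Cre recombinase driven by the keratin 14 promoter removes Brca1 and Trp53 from epithelial cells, so both sides of the division share the loss of both tumour suppressors. Wnt1 was measured in CPM, the read count of a gene per 1000000 counts of the tumour. Tumours at 10 CPM or more formed the Wnt1-high side (6 tumours), those under 1 CPM the Wnt1-low side (14 tumours), and 1 tumour between the limits entered no comparison. The other 52 tumours, of genotypes KB2P, KP and KB1(L1363P)P, are used only to place single levels. Of the 21 tumours 11 are titled KB1P and 10 KB1PM. The labels give both titles the same genotype, the histology adenocarcinoma and 100% epithelial tumour, and do not say what the added letter means. They give no age, treatment or animal for a tumour, so p-values measure the spread between these samples, which need not be that between animals.

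Wnt proteins are secreted, lipid-modified ligands that bind a Frizzled receptor together with Lrp5 or Lrp6. In the canonical branch this stops the degradation of beta-catenin, which enters the nucleus, joins TCF and LEF factors and switches on target genes, many of which, such as Axin2, Nkd1, Notum, Rnf43 and Znrf3, dampen the signal. Wnt1 is nearly silent in the normal mammary gland and became known as a gene that mouse mammary tumour virus activates by inserting nearby, as it does at Wnt10b, Wnt3, several Fgf genes and Rspo2.

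Wnt1 lies on the forward strand of chromosome 15 (98789857 to 98793837, mouse build GRCm38). Its near neighbour Wnt10b lies on the reverse strand (98770712 to 98778150), and the genes point away from each other with 11706 bases between their starts. On the far side, Ddn runs on the reverse strand (98803777 to 98809490) and faces Wnt1, with 9939 bases between the ends of both genes. The 250 bases before the start of Wnt1 and of Wnt10b are shown because the tumours were divided by one gene and the other is its closest relative in place. Sp5, a target that TCF factors bind, is shown as a window that holds the TCF core motif CTTTGA, marked in capitals on either strand. The sequences are from RefSeq on GRCm38.p6, read 5′ to 3′ on the strand of each gene.
Wnt1, chr15:98789607-98789856, forward strand: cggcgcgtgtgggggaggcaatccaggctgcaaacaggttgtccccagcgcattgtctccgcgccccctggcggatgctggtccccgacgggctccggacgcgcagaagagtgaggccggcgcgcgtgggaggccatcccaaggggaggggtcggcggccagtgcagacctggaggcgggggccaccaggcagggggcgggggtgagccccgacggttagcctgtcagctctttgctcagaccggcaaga
Wnt10b, chr15:98778151-98778400, reverse strand: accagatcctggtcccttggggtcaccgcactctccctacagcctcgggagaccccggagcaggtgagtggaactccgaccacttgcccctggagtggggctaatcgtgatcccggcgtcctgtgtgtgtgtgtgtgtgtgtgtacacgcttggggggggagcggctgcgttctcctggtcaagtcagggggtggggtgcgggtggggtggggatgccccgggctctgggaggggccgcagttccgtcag
Sp5, chr2:70474673-70474922, forward strand: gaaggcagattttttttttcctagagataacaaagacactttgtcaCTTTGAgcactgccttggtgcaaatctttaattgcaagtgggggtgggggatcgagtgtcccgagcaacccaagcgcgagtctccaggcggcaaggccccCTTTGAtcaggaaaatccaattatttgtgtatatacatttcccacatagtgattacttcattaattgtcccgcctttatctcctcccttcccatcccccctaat
The Wnt1 and Wnt10b windows hold 0 matches and the Sp5 window 2, while 13.8% of 32851 mouse promoter windows of this length hold at least 1. Only this 1 motif was searched, and Sp5 was shown because its window holds matches. The searched windows of the targets Axin2, Nkd1, Tcf7 and Rnf43 hold 0. Of those of Lef1 only chr3:131156044-131156293 holds any (2). The GC content was 71.6% for Wnt1, 66.8% for Wnt10b and 46.0% for Sp5, against a median of 52.4% over all windows. A match is a string of letters and not a measured binding site.

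Wnt1 itself chose the tumours, so its levels are a description without a test. The 6 Wnt1-high tumours had 416.5 CPM (KB1P 1), 355.0 (KB1P 4), 348.6 (KB1P 2), 119.2 (KB1PM 7), 82.2 (KB1P 7) and 48.4 CPM (KB1P 9), from 693 to 7132 counts. The 14 Wnt1-low tumours ranged from 0 to 0.859 CPM with a median of 0.0658, and none had more than 12 counts. The gap is wide: the lowest high tumour was KB1P 9 and the highest low tumour KB1P 13, and only KB1P 6, at 1.77 CPM (25 counts), fell between the limits. In 6 low tumours no Wnt1 read was counted, which allows up to 0.176 to 0.278 CPM, taking 3 counts as the limit for counting error alone. Total counts ran from 9090867 to 31615237 on the high side and from 10773581 to 21268733 on the low side. None of the other 52 tumours passed 0.392 CPM (4 counts), and 27 had 0 counts, so the same division could not be made among the 23 KB2P tumours.

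High Wnt1 was unevenly spread over titles: 5 of 11 KB1P and 1 of 10 KB1PM tumours were high. The labels' library descriptions begin with a number read here as a sequencing run, and KB1P and KB1PM titles share no run. Within KB1P titles every run held tumours of both sides (2 high and 3 low in run 1857, 2 and 1 in run 2119, 1 and 1 in run 3528). KB1PM 7 was the only high tumour in run 1756, beside 6 low ones, and the 3 tumours of run 1725 were all low. The title was therefore a term of the fit.

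**Figure D1:**
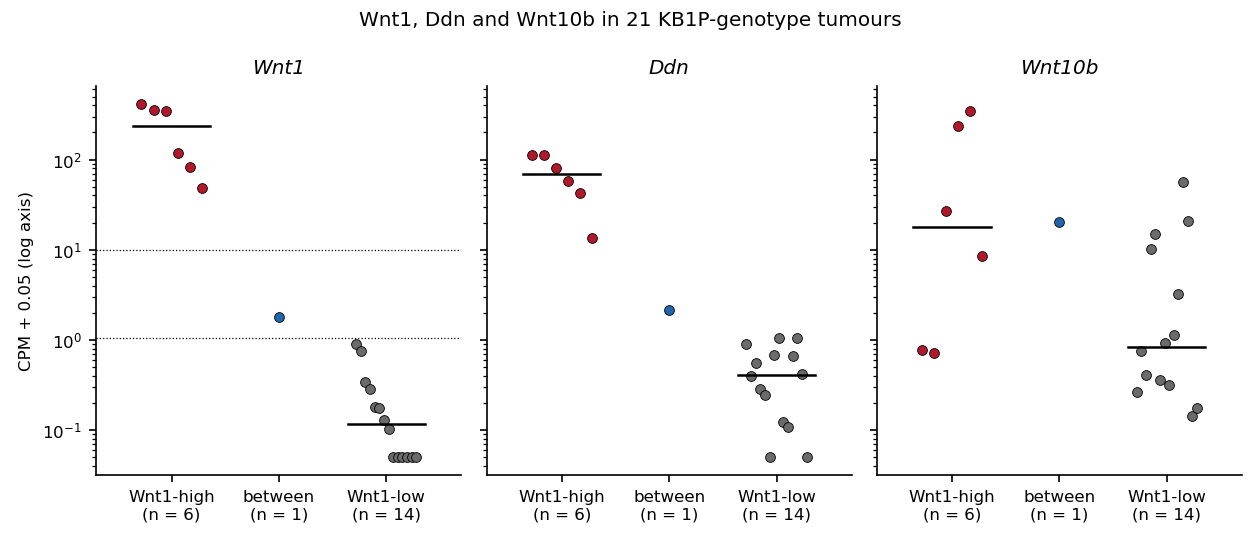
CPM of Wnt1, Ddn and Wnt10b in each of the 21 tumours on a log axis, with 0.05 added so that 0 can be drawn; points are tumours, in the same left-to-right order in every panel, black bars are medians, and the dotted lines mark the limits of 10 and 1 CPM. Ddn separated all 6 high from all 14 low tumours, and Wnt10b did not.

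Of 16743 genes tested beside Wnt1, Ddn alone passed (edgeR quasi-likelihood test, Benjamini-Hochberg adjusted p under 0.05), which is 0.00597% of the genes. Ddn encodes dendrin, a protein known from kidney podocytes and from neuronal dendrites. It had 111.4 CPM in KB1P 1, 113.4 in KB1P 4, 81.5 in KB1P 2, 57.7 in KB1PM 7, 42.9 in KB1P 7 and 13.3 in KB1P 9. The low side ran from 0 to 1.01 CPM with a median of 0.36. No low tumour came near the lowest high one, and the order of the high tumours in Ddn was that in Wnt1 except for the first pair. The difference was 7.11 on the log2 scale (SE 0.66, 95% interval 5.73 to 8.48, edgeR quasi-likelihood adjusted p = 1.25e-05), with 6 of 6 high tumours above all 14 low ones. Within the 11 KB1P titles alone Ddn was again the single gene to pass, which is 0.00681% of the genes in that fit, at a log2 difference of 7.09 (edgeR adjusted p = 0.00494).

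Ddn was also measured in the tumours that entered no comparison. KB1P 6, the tumour between the limits, had 2.12 CPM of Ddn (30 counts), above every low and below every high tumour. In the other 52 tumours the median was 0.198 CPM, 9 lay above the highest Wnt1-low tumour, and 0 reached the lowest Wnt1-high one. The highest were KB2P 17 with 6.61 CPM and KB2P 21 with 6.07, whose Wnt1 levels were 0.20 and 0.392 CPM, and the latter is the highest Wnt1 among these 52. In CPM per kilobase of annotated exon, which allows levels of different genes to be compared, Wnt1 exceeded Ddn in each high tumour (20.3 to 175.2 against 3.53 to 29.99). The ratio of Ddn to Wnt1 in CPM lay between 0.234 (KB1P 2) and 0.521 (KB1P 7). Markers of podocytes and neurons, on lists chosen after Ddn was seen, gave no difference that passed: 0 of 4 tested podocyte and 0 of 6 tested neuron genes passed in edgeR, DESeq2 or limma, and 1 of these 10, the neuronal growth gene Stmn2, had an unadjusted p under 0.05 (0.0269 in edgeR, log2 difference 2.31), at 23.9 CPM in KB1P 9 and at most 1.91 in the other high tumours. Over all genes 4.18% had an unadjusted p under 0.05 in edgeR. The 5 podocyte genes summed to 383.1 to 674.7 CPM in high and 108.9 to 922.5 in low tumours, with 3 of 4 tested differences positive and a median of 0.43, and most of these sums came from Podxl and Synpo. The 7 neuron genes summed to 3.17 to 28.1 against 2.97 to 87.8 CPM, with 2 of 6 positive, and the part of either cell type in the difference in Ddn was not tested. The nephrin gene Nphs1, a podocyte marker, was at most 0.0698 CPM on the high side and 0 in 4 of 6 high tumours. Snap25, a neuronal gene, was at most 0.274 CPM there. Each is 1 member of its list, named after its values were seen, and the cells that made Ddn were not tested.

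**Figure D2:**
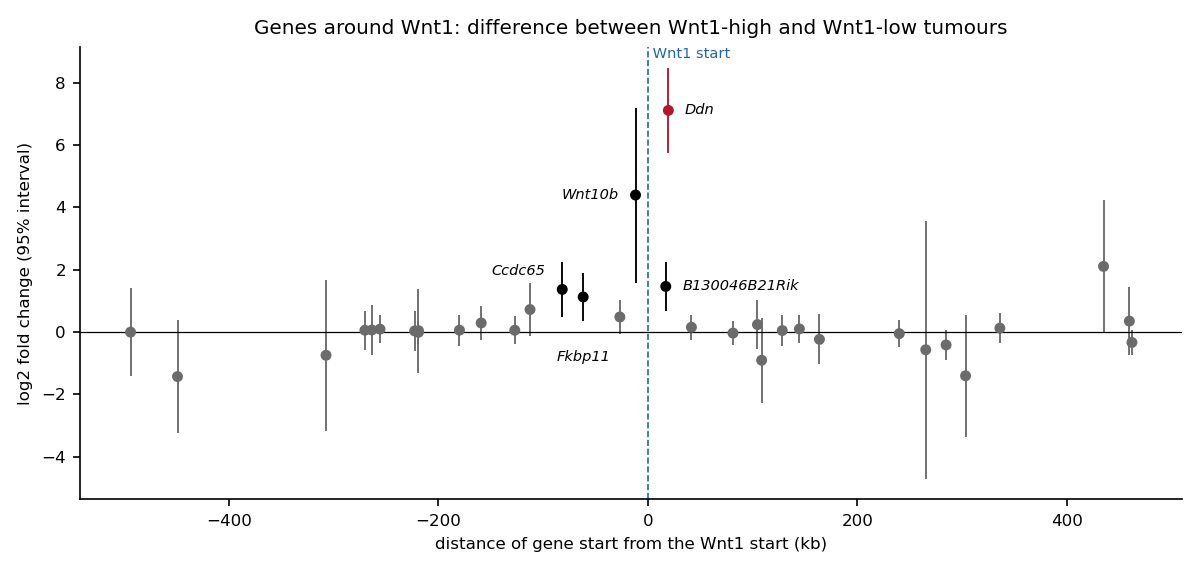
Log2 fold change (Wnt1-high minus Wnt1-low, edgeR) with its 95% interval for the 34 tested genes that start within 500 kb of the Wnt1 start, against distance in kb; Wnt1 is left out because it chose the tumours. Ddn is in red (adjusted p under 0.05), genes with an unadjusted p under 0.05 in black, and others in grey; all 5 coloured or black genes lie within 100 kb of the Wnt1 start.

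Around Wnt1 the genes with an unadjusted p under 0.05 were near the gene. Of 63 annotated genes that start within 500 kb, 49 were in the count table and 34 were tested. Within 100 kb 7 of 8 tested genes had a positive difference and 5 an unadjusted p under 0.05, against 0 of 26 beyond that distance, where differences ran from -1.43 to 2.11. The limit of 100 kb was not among the planned settings, and the farthest of the 5, Ccdc65, starts at -81.65 kb. Beyond it Kcnh3 differed by 2.11 (SE 1.02, edgeR unadjusted p = 0.0512), so the contrast depends on these cuts. Over all genes 46.6% had a positive difference and 4.18% an unadjusted p under 0.05 (334 higher, 366 lower). Of the 5, only Ddn passed after adjustment. The other 4 were Wnt10b, Fkbp11, Ccdc65 and B130046B21Rik, and all 4 had an adjusted p of 0.999 (edgeR). Fkbp11, a chaperone gene of the secretory pathway, had a log2 difference of 1.12 (SE 0.37), with 18.6 to 52.3 CPM on the high and 7.08 to 35.7 on the low side. Ccdc65, a cilium gene, differed by 1.37 (SE 0.43) between overlapping groups of 1.32 to 8.59 and 0.523 to 6.26 CPM. B130046B21Rik is annotated as an antisense RNA (98807024 to 98816077, forward strand) that overlaps Ddn, and had 2.71 to 13.8 CPM on the high and 1.34 to 4.10 on the low side. The library kit marks strand, but no source used here says whether the counting took strand into account, so reads of Ddn and B130046B21Rik may not be separable. Arf3, Prkag1 and Kmt2d, the remaining 3 genes within 100 kb, differed by 0.48, 0.15 and -0.03.

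Wnt10b, which encodes a canonical ligand of the mammary gland and skin, was very high in a pair of the Wnt1-high tumours. It had 348.1 CPM in KB1P 7, 232.9 in KB1PM 7, 27.1 in KB1P 2, 8.44 in KB1P 9, 0.730 in KB1P 1 and 0.660 in KB1P 4. The low side ran from 0.0928 to 56.7 CPM (median 0.781), led by KB1PM 2, and KB1P 6 had 20.5. The groups overlapped, with 2 of 6 high tumours above all low ones, and the log2 difference of 4.39 (SE 1.35) did not pass (edgeR adjusted p = 0.999, unadjusted p = 0.00383). Without KB1P 7 it was 2.68, and with the run in place of the title 3.29. Per kilobase, KB1P 7 and KB1PM 7 had more Wnt10b (102.3 and 68.5) than Wnt1 (34.6 and 50.1), while KB1P 1 and KB1P 4, with 175.2 and 149.3 of Wnt1, had 0.215 and 0.194 of Wnt10b. The pair of tumours richest in Wnt1 lay below the low median of Wnt10b. In the other 52 tumours, none of which passed 0.392 CPM of Wnt1, Wnt10b reached 142.9 CPM, in a KB2P tumour.

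The remaining ligands gave no difference that passed. Of 19 Wnt genes 13 were tested, and 0 passed in edgeR, DESeq2 or limma, with Wnt10b the 1 gene at an unadjusted p under 0.05. Their median log2 difference was 0.28, against -0.03 over all genes. Over all genes 4.18% had an unadjusted p under 0.05 in edgeR. Wnt6 was present in every high tumour at 17.8 to 58.8 CPM and ranged from 0.187 to 234.6 on the low side. Wnt5a, the main non-canonical ligand, had 6.60 to 69.1 CPM in high and 5.24 to 122.0 in low tumours. Wnt3a stayed at or below 0.368 CPM in all of them. Of 14 genes known as recurrent insertion sites of mouse mammary tumour virus 8 were tested, with a median difference of 0.05, and Wnt10b was again the 1 with an unadjusted p under 0.05. Of the secretion genes, Porcn, which attaches the lipid to Wnt proteins, had 31.5 to 147.7 CPM against 8.36 to 101.5 (log2 difference 0.60, SE 0.51), and Wls, their carrier to the cell surface, 50.7 to 126.9 against 26.0 to 273.0 (0.11, SE 0.36). Neither passed (edgeR adjusted p = 0.999 for both), and the ranges overlapped in both genes.

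**Figure D3:**
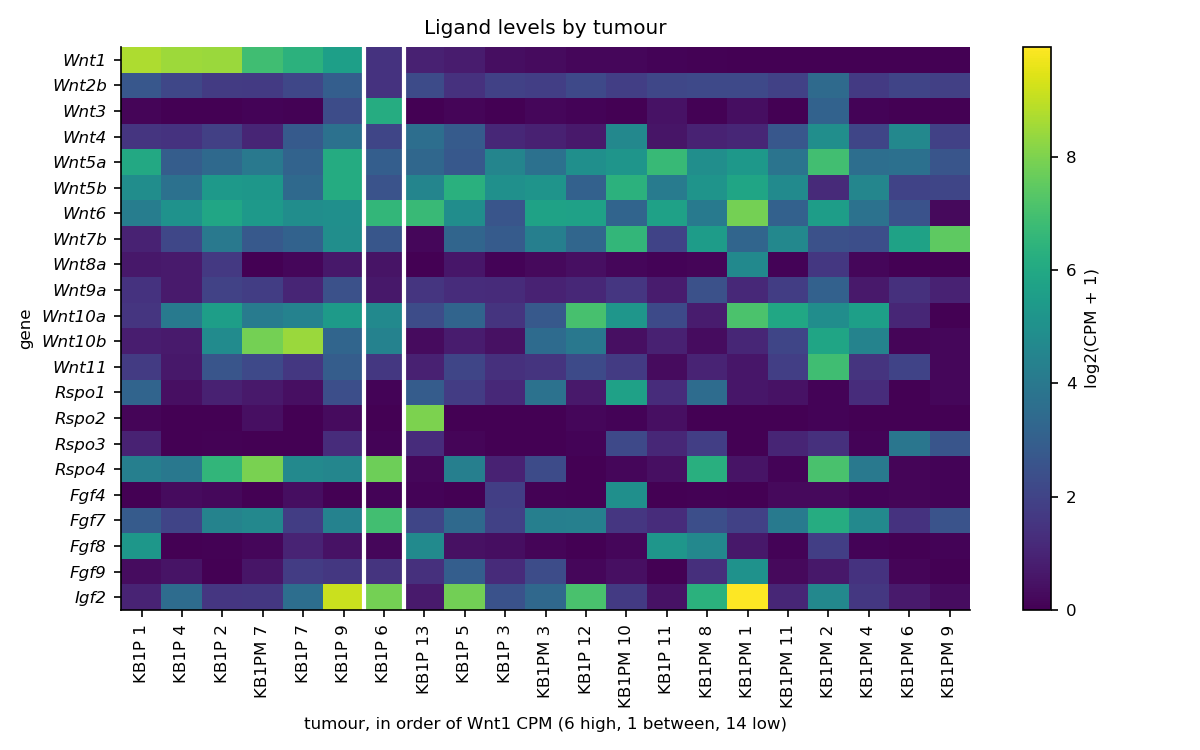
Heat map of log2(CPM + 1) for 22 Wnt, R-spondin, Fgf and Igf2 ligand genes in the 21 tumours, ordered by Wnt1, with white lines around the tumour between the limits. Bright cells outside the Wnt1 row are scattered over single tumours, such as Rspo2 in KB1P 13, Wnt3 in KB1P 6 and Wnt7b in KB1PM 9.

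Among receptors, 0 of 15 tested genes passed in edgeR, DESeq2 or limma, and the median was -0.02. Over all genes 4.18% had an unadjusted p under 0.05 in edgeR. Fzd7, a Frizzled abundant in breast epithelium, was the 1 with an unadjusted p under 0.05: 258.9 to 557.6 CPM in high and 215.9 to 2729 in low tumours, a log2 difference of -1.36 (SE 0.55). Every high tumour lay inside the low range, in which 4 tumours stood apart: KB1P 3, KB1PM 3, KB1P 5 and KB1PM 1 had 1906 to 2729 CPM and the other low tumours at most 775.3. The co-receptors Lrp5 (310.7 to 453.7 against 273.1 to 658.9 CPM) and Lrp6 (334.2 to 478.9 against 239.7 to 741.5) differed by -0.36 and -0.02. Of 6 tested R-spondin and Lgr genes, whose products keep Frizzled receptors at the surface, 0 passed in any of the 3 tools. In edgeR 2 were higher at an unadjusted p under 0.05, against 4.18% of all genes in both directions. Rspo4 had 14.6 to 243.0 CPM on the high side and 0 to 136.1 on the low side, where the median was 0.373 (log2 difference 3.11, SE 1.38, edgeR adjusted p = 0.999). Every high tumour lay above the low median, but 4 low tumours, led by KB1PM 2 (136.1) and KB1PM 8 (75.9), lay inside the high range. Lgr4, an R-spondin receptor, had 190.0 to 394.7 CPM against 82.3 to 293.4 (0.76, SE 0.25, edgeR adjusted p = 0.999), and Lgr5, both a receptor and a stem-cell target gene, 0.548 to 59.0 against 0.786 to 177.3 (-0.66, SE 1.16).

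None of the targets that feed back on the pathway passed. Of 15 such genes 14 were tested, and 0 passed in edgeR, DESeq2 or limma. In edgeR 0 had an unadjusted p under 0.05, 13 had a positive difference, and the median was 0.86. Over all genes 46.6% had a positive difference. Other lists were uneven too, with 13 of 14 interferon response and 12 of 14 ribosomal protein genes positive (medians 0.15 and 0.32). Of 16 proliferation genes 3 were positive (median -0.19). Axin2, a scaffold of the destruction complex and a general readout of canonical signalling, had 133.9 CPM in KB1P 1, 109.5 in KB1P 7, 103.1 in KB1P 4, 99.8 in KB1PM 7, 94.3 in KB1P 2 and 30.6 in KB1P 9. The low side ran from 3.53 to 547.1 CPM with a median of 30.8, and its highest value belonged to KB1PM 2, followed by KB1PM 3 with 104.9. The top low tumour thus had more Axin2 than any high tumour, while 5 of 6 high tumours lay above the low median. The log2 difference was 0.88 (SE 0.89, 95% interval -0.97 to 2.73, edgeR adjusted p = 0.999).

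Notum, an enzyme that strips the lipid from Wnt proteins, had 33.8, 33.6, 23.5, 17.0, 6.49 and 5.39 CPM in the high tumours (KB1P 2, KB1P 7, KB1PM 7, KB1P 1, KB1P 9 and KB1P 4) and a low median of 0.993 (range 0.129 to 131.5). All 6 exceeded the low median, and the difference of 1.88 (SE 1.40) did not pass. Nkd1, which inhibits Dishevelled, had 22.2 to 262.0 CPM against 0.689 to 496.4 (1.80, SE 1.17). Wif1, a secreted Wnt inhibitor, had 24.2 to 895.6 CPM against 0.557 to 2076 (2.60, SE 1.58), with a high median of 148.9 and a low median of 22.8. Apcdd1, a membrane inhibitor, differed by 1.32 (SE 0.99), Rnf43 and Znrf3, ubiquitin ligases that remove Frizzled, by 0.83 (SE 0.49) and 0.48 (SE 0.36), and the nuclear factor genes Tcf7 and Lef1 by 0.40 (SE 0.44) and 0.53 (SE 1.22). Sp5 was at most 1.21 CPM on the high side. All of these had an adjusted p of 0.999 (edgeR), and in each the groups overlapped.

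**Figure D4:**
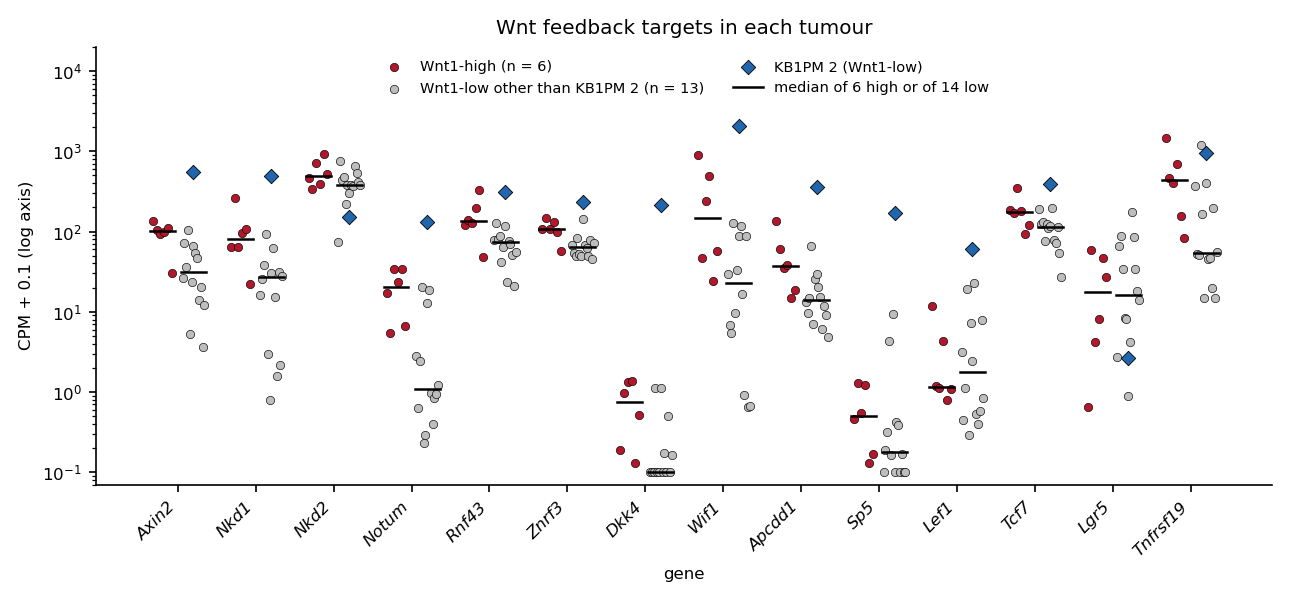
CPM of the 14 tested Wnt feedback targets in each tumour on a log axis, with 0.1 added; red points are the 6 Wnt1-high tumours, grey points 13 Wnt1-low tumours, the blue diamond is the Wnt1-low tumour KB1PM 2, and bars are medians of the 6 and of all 14. The diamond is the highest Wnt1-low value in 11 of the 14 genes.

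A single Wnt1-low tumour, KB1PM 2, weighed heavily on these values. It had the highest low-side level of 11 of the 14 tested feedback targets, among them Nkd1 (496.4 CPM), Dkk4 (217.1), Sp5 (169.6) and Lef1 (61.2), beside 0 counts of Wnt1. It also had the highest Ctnnb1 (3540 CPM), the beta-catenin gene, of all 21 tumours, and the highest Wnt11 (119.4 CPM). Its squamous and hair differentiation markers summed to 2382 CPM, against at most 554.9 in any other of the 21. Without KB1PM 2 still 0 of 14 targets passed in edgeR, but 7 had an unadjusted p under 0.05, all higher in Wnt1-high tumours, and the median rose to 1.28. In that fit 4.94% of all genes had an unadjusted p under 0.05. The 7 were Wif1 (log2 difference 3.08), Notum (2.21), Nkd1 (2.05), Apcdd1 (1.54), Axin2 (1.21), Rnf43 (1.02) and Znrf3 (0.58). Within the KB1P titles alone, where KB1PM 2 does not enter, 4 of 12 had an unadjusted p under 0.05 (Nkd1, Notum, Wif1 and Apcdd1) against 5.69% of all genes, 0 passed, and the median was 1.06. Within the KB1PM titles alone, with KB1PM 7 as the only high tumour, 0 of 14 had an unadjusted p under 0.05 and the median was 0.08, and without the title in the fit the median was 0.41. The tumour was singled out after its values were seen.

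**Figure D5:**
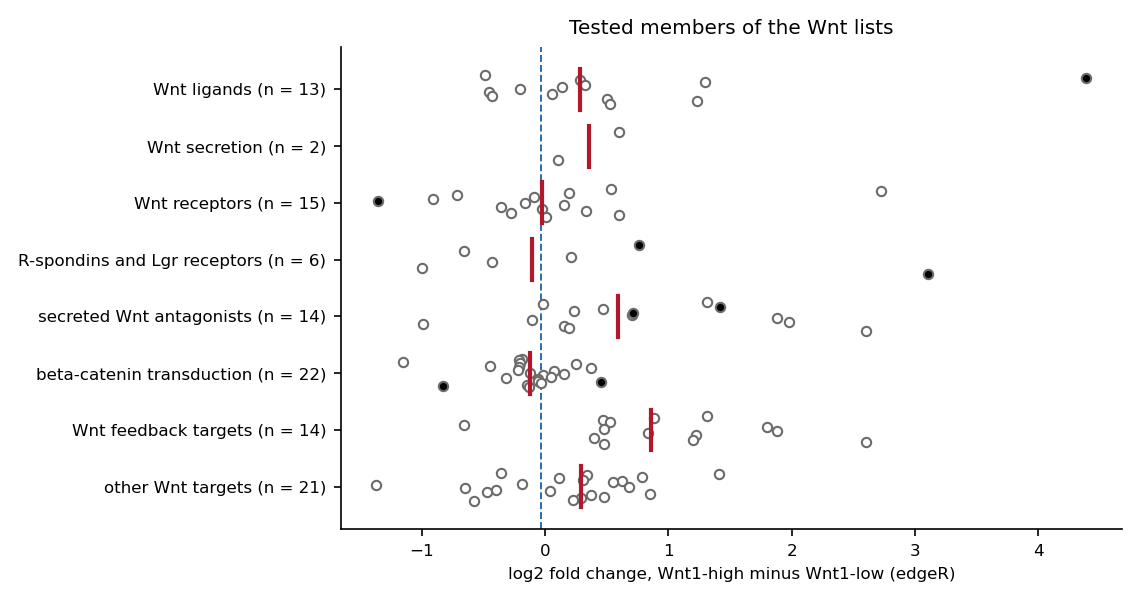
Log2 fold change (Wnt1-high minus Wnt1-low, edgeR) of each tested member of 8 Wnt lists; each point is a gene, black points have an unadjusted p under 0.05, red bars are list medians and the dashed blue line is the median of all tested genes (-0.03). Feedback targets had the median farthest to the right, at 0.86, and receptors and transduction genes lay around the line.

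Other inhibitors, the intracellular machinery and the wider targets gave no difference that passed. Of 14 tested secreted or membrane antagonists, 4 of which are also among the feedback targets, 0 passed in edgeR, DESeq2 or limma. Dkk3 (23.0 to 122.4 against 2.31 to 53.99 CPM, 1.42, SE 0.60) and Kremen1 (141.3 to 343.8 against 87.2 to 399.5 CPM, 0.71, SE 0.29), a receptor for Dickkopf proteins, had an unadjusted p under 0.05. The list's median was 0.59, and over all genes 4.18% had an unadjusted p under 0.05 in edgeR. Without KB1PM 2, 6 of 14 had an unadjusted p under 0.05 in edgeR, against 4.94% of all genes in that fit. Of these, Wif1, Notum and Apcdd1 were already counted among the feedback targets, and the others were Dkk3, Kremen1 and Sfrp2. Of 22 genes of the transduction machinery 0 passed in any of the 3 tools and the median was -0.13. Pygo2, a beta-catenin co-activator (0.45, SE 0.20), and Tnks, which marks Axin for removal (-0.83, SE 0.35), had an unadjusted p under 0.05. Ctnnb1 itself had 648.8 to 1826 CPM in high and 807.5 to 3540 in low tumours (-0.12, SE 0.31). Of 21 tested wider targets, 0 passed in any tool, 0 had an unadjusted p under 0.05 in edgeR, and the median was 0.29. Myc had 196.9 to 386.5 CPM against 130.7 to 412.0 (0.37, SE 0.25), and Ccnd1, encoding cyclin D1, 139.5 to 1067 against 229.9 to 1698 (0.11, SE 0.47).

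Complete separation of the sides was rare. Every high tumour lay above every low tumour in CPM for 4 genes (0.0239% of those tested), and below for 0 (0%). Beside Ddn these were Zpld1, Prdx1 and Uqcrh, named because they are so few. Zpld1, a gene for a membrane protein with a zona pellucida domain, had 0.770 to 8.02 CPM against 0 to 0.473, so it rests on few reads (log2 difference 3.93, SE 0.87, edgeR adjusted p = 0.999). Prdx1, a peroxidase gene, had 269.9 to 472.3 CPM against 140.4 to 249.0 (0.70, SE 0.18, edgeR adjusted p = 0.999). Uqcrh, a subunit gene of respiratory complex III, had 92.4 to 152.0 CPM against 57.3 to 92.2 (0.55, SE 0.16, edgeR adjusted p = 0.999). Prdx1 (116685544 to 116700822) and Uqcrh (116066965 to 116075071) both lie on chromosome 4. DESeq2 called 4 genes (0.0239%): Ddn, Zpld1 (adjusted p = 0.0448), Rell2 (log2 difference 2.05, adjusted p = 0.0248) and, lower on the Wnt1-high side, Zscan10 (-2.90, adjusted p = 0.00804), a zinc finger gene of pluripotent cells. Unlike in edgeR, Wnt1 was among the genes adjusted in DESeq2, which lowers the adjusted p of genes ranked after it. Zpld1 lay close to the threshold, and its call without Wnt1 in the adjustment was not computed. In edgeR the lowest adjusted p of any gene other than Ddn was 0.999. The median width of the 95% interval was 1.56 log2 units, which limits the size of difference that 1 gene could show at these numbers.

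By likeness of pattern, Ddn followed Wnt1 most closely, with a Pearson correlation of log2 CPM of 0.96 over the 21 tumours. Next came Prdx1 (0.81), B130046B21Rik (0.75), Uqcrh (0.74), Snapc5 (0.72), Kctd14 (0.69), Glrb (0.68), Gm13782 (0.68), Ankrd13b (0.67) and Tbcc (0.66). Most of such a value comes from the gap between both sides, and the tumours share titles and runs, so it is given as a description. Over the 6 high tumours alone Ddn reached 0.93 and Prdx1 0.85, and over the 14 low tumours 0.23 and 0.37. Glrb, a glycine receptor subunit gene, had 16.3 to 84.5 CPM against 2.13 to 35.2 (1.86, SE 0.56, edgeR adjusted p = 0.999).

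Both sides had the markers of mammary carcinoma at overlapping levels. The 14 epithelial markers summed to 763.8 to 4214 CPM in high and 275.7 to 5360 in low tumours, with KB1P 1 lowest among the high and KB1PM 8 lowest among the low, although the labels give both as wholly epithelial. The 15 basal markers summed to 2119 to 5914 against 890.7 to 5610 CPM, and 11 luminal progenitor genes had a median difference of -0.41. No member passed in edgeR, DESeq2 or limma in any of these lists, nor in those for squamous, mesenchymal, fibroblast, endothelial, adipocyte, muscle or immune cells, haemoglobin, interferon response, antigen presentation, proliferation or homologous recombination. At an unadjusted p under 0.05 in edgeR, 1 basal, 1 homologous recombination and 2 proliferation genes were lower and 1 mesenchymal gene higher on the high side, and the other lists named here had 0. Over all genes the share was 4.18%. Fibroblast markers summed to 14524 CPM in KB1P 9, the tumour with the least Wnt1 and Ddn of the 6, against at most 7622 in any low tumour. All 7 adipocyte genes had positive differences (median 0.97, 0 with an unadjusted p under 0.05), with sums of 21.5 to 268.5 against 5.34 to 273.4 CPM. The highest high sum was that of KB1P 1 and the next 71.8, and without KB1P 1 the differences of Plin1 (-0.37), Fabp4 (-0.31) and Cidec (-0.09) were negative and those of Adipoq, Plin4, Lep and Cfd ran from 0.04 to 0.55. In bulk RNA fewer cells of a type and less RNA per cell cannot be told apart, and the part of these cells in the differences above was not tested. Brca1 (21.5 to 39.6 against 16.0 to 45.3 CPM) and Trp53 (22.1 to 32.6 against 13.0 to 38.6) differed by -0.31 and -0.12, and totals per gene cannot show the deleted exons. Abcb1b, encoding a drug efflux pump, followed the title rather than the side, at 1.10 to 18.6 CPM in KB1P and 39.3 to 318.2 in KB1PM tumours, and its difference between the sides was -0.05 with the title in the fit.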

How the data were processed

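RNA of 73 tumours was sequenced from a kit that marks strand, per the labels' protocols. Reads were trimmed with cutadapt 2.10, aligned with STAR 2.7.3a to mm10 and counted with featureCounts 2.0.0, per the submitters' processing notes. No source used here says whether the counting took strand into account. The authors deposited raw read counts per gene symbol and a table of log2 normalized counts, for which the notes name DESeq without a version.

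CPM was computed from the deposited counts. The tests used edgeR 4.0.16 in R 4.3.3 (quasi-likelihood, TMM scaling, a minimum count of 10, side and title as terms, Benjamini-Hochberg adjustment over 16743 genes without Wnt1). DESeq2 1.42.0 on the same counts, with Wnt1 among the genes adjusted, and limma 3.58.1 on the deposited log2 values were alternatives. Total counts of 9090867 to 31615237 per tumour set the precision. Positions come from GENCODE on GRCm38, the build also called mm10, and exon lengths from the union of annotated exons. Among the symbols with counts, 24 had been turned into dates, holding 0.169% of counts over all 73 tumours, and 2 symbols occur more than once. No pair among the 21 tumours had identical counts, and the highest Spearman correlation was 0.94. The code was checked on simulated counts with the same set spread for every gene. That check does not show what could be detected at the spread of these tumours.

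The division, the lists and the genes named were chosen with earlier results of these data known. Named were Wnt10b, 12 target genes, members of the Wnt lists that passed, the 10 genes most like Wnt1 by Pearson correlation of log2 CPM, and the targeted genes. Other members are named where a count of 5 or fewer singled them out, and those with values but no call were chosen after their values were seen.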

Additional observations from a re-analysis of the deposited data

Results flagged for a closer look

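In 5 of the 27 named genes 1 of the 6 Wnt1-high tumours was set apart from the other 5 by a gap large against the group's range. Normally distributed values pass the limit used by chance in about 1 of 20 groups. It was applied to CPM without a log scale, so that rate need not hold here. KB1P 1 was the highest for Lef1 (11.7 CPM, the next 4.16), for the efflux pump gene Abcb1a (13.8 CPM, the next 3.98) and, by a small amount, for Snapc5 (12.9 CPM, the next 10.4). Tcf7 was highest in KB1P 2 (350.1 CPM, the next 185.4) and Nkd1 in KB1P 4 (262.0 CPM, the next 108.7). None of these genes differed between the sides past the threshold.

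Ddn was counted above every Wnt1-low tumour in KB1P 6 and in 9 of the other 52 tumours, of which the highest 2 are named here. KB1P 6, between the limits, had 2.12 CPM. KB2P 17 had 6.61 CPM and KB2P 21 had 6.07 CPM, both with less than 1 CPM of Wnt1.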

How the results depend on the processing

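Ddn passed in 34 of 36 alternatives, including each of the 20 fits that left out 1 tumour, with a log2 difference of 6.68 to 7.29 throughout. An upper limit of 5 CPM and KB1P 6 moved to the low side gave the same fit. It is counted under both names in this section. Scaling, filters, limma and the side given to KB1P 6 left the count of genes at 1. DESeq2, with Wnt1 among the genes adjusted, called 4 genes beside Wnt1. With the run in place of the title 2 genes passed, the second being Ush1c, a gene of hair cell stereocilia (log2 difference 8.00, edgeR adjusted p = 0.048). Leaving out each tumour gave 1 to 2 genes, the 2 without KB1PM 1, where Ush1c again passed. Within KB1PM titles alone, with 1 high tumour assumed to vary like the low ones, Ddn did not pass (log2 difference 7.12). With the tumour number of the titles as a replicate block 0 genes passed. In that fit 389 of 18735 had an unadjusted p under 0.05 (edgeR), and Ddn, at a log2 difference of 7.02, did not pass. The labels do not say whether tumours of the same number are related. Deviations of same-numbered tumours correlated at -0.26 to 0.16, which cannot decide this because the titles share no run.

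Over 27 named genes and all alternatives 966 of 968 values stayed on the same side of the threshold. The signs of 11 genes changed under some alternative, in 33 values, none past the threshold. The difference in Wnt10b ran from 1.09 (replicate block) to 6.42 (without KB1P 12). Without KB1PM 7, the 2 R-spondin and Lgr genes no longer had an unadjusted p under 0.05, and the feedback median was 1.13. With 6 high tumours, low counts as in Zpld1 and the spread between tumours limit what could be detected.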

Other observations

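The levels given here are of ligand genes of the Wnt, R-spondin and Fgf families and Igf2 with at least 10 CPM in a tumour and at least 10 times the median of the 21, a rule set after the values were seen. How often other genes meet it was not counted. Wnt1, which chose the tumours, is left out. At least 1 ligand gene other than Wnt1 met the rule in 5 of 6 high and 12 of 14 low tumours, and in KB1P 6. Rspo2, Wnt3, Wnt8a and Fgf4 met it in 1 tumour each, and Wnt10b, Igf2, Fgf8 and Rspo1 in several. KB1P 6, between the limits, had Wnt3 at 70.9 CPM, Rspo4 at 215.9 and Fgf7 at 120.5.

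Among low tumours KB1P 13 had 250.1 CPM of Rspo2, an R-spondin gene with a median of 0 over the 21. KB1PM 9 and KB1PM 10 had 179.0 and 94.4 CPM of Wnt7b, and KB1PM 10 also had 30.1 of Fgf4 and 51.2 of Rspo1. KB1PM 1 had 25.4 CPM of Wnt8a, 32.5 of Fgf9 and 984.7 of Igf2. Fgf8 was at 35.9 CPM in KB1P 11, 26.0 in KB1P 13 and 23.7 in KB1PM 8, and at 37.2 in the high tumour KB1P 1, against a median of 0.142. On the high side KB1P 9 had 573.2 CPM of Igf2 and KB1PM 7 had 243.0 of Rspo4. Wnt10b met the rule in the high tumours KB1P 7, KB1PM 7 and KB1P 2. Each is a level in 1 tumour, with no test.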
